A study of Mus musculus with 4 samples.

Results

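The heavy chain of an antibody is encoded by gene segments, and the members described here are its variable segments, named Ighv. They are the 185 of 55421 gene identifiers in the count tables whose symbol in a GENCODE annotation of build GRCm38 begins with Ighv. The annotation classes 113 of them as variable genes, 70 as pseudogenes and 2 as a further immunoglobulin class on the opposite strand, 2 symbols being used by 2 identifiers each. They fall into 16 families by the number that follows Ighv and lie at chr12:113572927-116010093, within 2.44 Mb. RNA described as that of islet macrophages was sequenced from wild-type C57BL/6 mice on normal chow (NCD, 2 libraries) or on a high-fat diet (HFD, 2 libraries), which is used to make mice obese. The labels give neither the age of the mice nor the length of feeding, and nothing in them says that 2 libraries of 1 diet are 2 animals, so p-values rest on a spread among libraries that may be technical.

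A developing B cell joins 1 variable segment to a diversity and a joining segment, and the joined exon codes for the part of the heavy chain that meets antigen. Each B cell and its descendants keep a single productive join, so the segments found in RNA depend on which B cell clones are present and on how much antibody RNA each makes, with plasma cells making most. Segments of a family resemble each other in sequence, and pseudogenes are segments that cannot give a working chain. In bulk RNA, fewer cells of a type and less RNA per cell cannot be told apart.

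The libraries held 56740720 to 64490097 counts. Levels are given as CPM, counts scaled to a common library size. Islet hormone transcripts were abundant, with the 6 beta cell markers at a summed 17175 and 17645 CPM in NCD against 13412 and 14018 in HFD. The 10 macrophage markers, among them Adgre1 and Csf1r, summed to 989 and 962 CPM in NCD against 857 and 859 in HFD, so that markers of the labelled cell type were present at lower summed levels than those of beta cells. Ins1, Ins2 and Iapp made up nearly all of the beta cell sum. In NCD the other beta cell markers, Pdx1, Mafa and Slc2a2, were at 45.1, 73.8 and 38.5 CPM, and Adgre1 and Csf1r at 30.7 and 86.5. The sums therefore do not compare amounts of cells. Low counts in all 4 libraries were 1.72 to 1.83 times as frequent at multiples of 4 as at the neighbouring numbers, so a floor of 12 counts per library (3 steps of 4) was used for segments without a count. Floors and intervals on counts cover counting error only. The intervals take each count as a separate read, so where counts come in steps they may be too narrow.

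The germline sequences below come from the variable exon, exon 2 of 2, of the GENCODE transcripts on GRCm38, all on the minus strand, and are printed 5′ to 3′ as the RNA reads, up to the joining end. Each is the last 300 bases of its exon, at the position given. The first set belongs to family 1 and shows how close in sequence the segments are that went up and down. Ighv1-53 (chr12:115158403-115158702) held the largest share of counts in each library. Ighv1-26 (chr12:114788372-114788671) and Ighv1-18 (chr12:114682632-114682931) were higher in HFD, Ighv1-52 (chr12:115145487-115145786) was lower, and Ighv1-42 (chr12:114937113-114937412) did not pass the test. Capitals mark the bases that differ from Ighv1-53 at the same position, in exons of equal length (305 bases).
Ighv1-53: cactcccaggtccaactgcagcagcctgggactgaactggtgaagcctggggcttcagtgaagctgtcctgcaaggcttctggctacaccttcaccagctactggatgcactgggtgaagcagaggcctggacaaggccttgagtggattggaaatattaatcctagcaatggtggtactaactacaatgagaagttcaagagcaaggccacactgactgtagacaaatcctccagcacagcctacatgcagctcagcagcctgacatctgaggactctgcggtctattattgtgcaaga
Ighv1-26: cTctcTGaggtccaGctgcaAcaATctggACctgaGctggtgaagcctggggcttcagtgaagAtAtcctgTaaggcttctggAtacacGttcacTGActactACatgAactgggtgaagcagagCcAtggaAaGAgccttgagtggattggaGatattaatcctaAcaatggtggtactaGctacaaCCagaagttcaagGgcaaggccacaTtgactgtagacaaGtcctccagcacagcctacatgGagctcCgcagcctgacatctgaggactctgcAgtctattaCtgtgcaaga
Ighv1-18: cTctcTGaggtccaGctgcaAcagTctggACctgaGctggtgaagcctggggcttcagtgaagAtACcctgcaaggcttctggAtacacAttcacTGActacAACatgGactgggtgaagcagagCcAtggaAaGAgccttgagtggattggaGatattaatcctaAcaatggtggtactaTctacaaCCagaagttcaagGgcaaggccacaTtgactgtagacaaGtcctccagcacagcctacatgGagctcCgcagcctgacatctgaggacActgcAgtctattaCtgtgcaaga
Ighv1-52: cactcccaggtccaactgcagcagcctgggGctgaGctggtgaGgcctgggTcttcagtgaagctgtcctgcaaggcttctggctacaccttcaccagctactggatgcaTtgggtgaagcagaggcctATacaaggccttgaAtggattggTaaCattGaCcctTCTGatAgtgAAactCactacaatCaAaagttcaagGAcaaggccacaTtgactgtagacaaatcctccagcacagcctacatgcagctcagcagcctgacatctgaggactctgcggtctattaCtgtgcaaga
Ighv1-42: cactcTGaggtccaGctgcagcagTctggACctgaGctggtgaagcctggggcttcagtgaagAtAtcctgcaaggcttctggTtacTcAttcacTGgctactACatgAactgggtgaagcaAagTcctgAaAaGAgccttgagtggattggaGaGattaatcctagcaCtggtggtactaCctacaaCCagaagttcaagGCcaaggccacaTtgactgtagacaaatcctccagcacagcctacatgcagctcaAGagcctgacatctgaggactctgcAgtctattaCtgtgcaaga

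Against Ighv1-53, Ighv1-52 differed at 26 positions, Ighv1-42 at 36, Ighv1-26 at 38 and Ighv1-18 at 39. The median identity of V exons was 84.9% between variable genes of family 1, 81.9% within a family over all members and 58.0% between families. The last 9 bases of all 5 exons above are TGTGCAAGA, the codon of the conserved cysteine just before the most variable antigen-binding loop, and the 2 codons after it. TGTGCAAGA was found in the final 30 bases of 63 of 113 variable genes (55.8%), 21 of 70 pseudogenes (30%) and 39 of the 68 segments called higher (57.4%). Of 141485 other transcripts 0.00707% held it in their final 30 bases, and its reverse complement was in 0.0134% of those and in 0 of the 113 variable genes. The second set shows 3 segments of other families whose use differed between the diets: Ighv11-2 (chr12:114048241-114048540), Ighv6-3 (chr12:114391712-114392011) and Ighv4-1 (chr12:113948282-113948581). Capitals here mark the codon of the same cysteine.
Ighv11-2: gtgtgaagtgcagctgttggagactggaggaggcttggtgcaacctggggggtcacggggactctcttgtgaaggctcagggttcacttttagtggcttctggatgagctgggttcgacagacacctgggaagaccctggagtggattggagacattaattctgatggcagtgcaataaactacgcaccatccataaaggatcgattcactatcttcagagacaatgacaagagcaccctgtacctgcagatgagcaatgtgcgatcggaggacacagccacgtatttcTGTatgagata
Ighv6-3: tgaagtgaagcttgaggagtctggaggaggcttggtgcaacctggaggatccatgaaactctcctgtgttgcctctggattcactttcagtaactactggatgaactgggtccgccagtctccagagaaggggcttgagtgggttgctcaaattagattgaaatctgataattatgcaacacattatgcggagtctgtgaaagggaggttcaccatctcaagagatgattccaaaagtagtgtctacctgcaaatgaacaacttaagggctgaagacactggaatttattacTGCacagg
Ighv4-1: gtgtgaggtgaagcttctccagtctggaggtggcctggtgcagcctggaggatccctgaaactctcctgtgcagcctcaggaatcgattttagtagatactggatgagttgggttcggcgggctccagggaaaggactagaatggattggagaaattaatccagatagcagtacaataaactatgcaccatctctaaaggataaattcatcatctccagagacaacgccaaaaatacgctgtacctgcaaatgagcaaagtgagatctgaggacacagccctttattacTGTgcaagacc

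Ighv transcripts made up a larger part of the HFD libraries. All members together held 9165 and 8893 counts in NCD, against 62218 and 58027 in HFD. As a part of the library this was 0.0142% (95% Wilson interval 0.0139 to 0.0145) and 0.0143% (0.0140 to 0.0146) in NCD, and 0.101% (0.0998 to 0.101) and 0.102% (0.101 to 0.103) in HFD. The summed level was 142.6 ± 0.653 CPM (SD, n = 2) in NCD and 1014 ± 11.9 CPM in HFD, 7.11-fold higher, a log2 ratio of 2.83. The libraries of the diets did not overlap and differed by far more than the spread within a diet. With 2 libraries against 2, an exact two-sided permutation test cannot go below p = 0.333, so none is given for sums.

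Of the 185 members, 109 had a count in some library, 97 of them variable genes and 12 pseudogenes. Enough counts for the test were found in 81 members, 80 variable genes and 1 pseudogene. EdgeR's quasi-likelihood test, fitted to 21563 genes with Benjamini-Hochberg adjustment at 0.05, called 68 of the 81 higher in HFD (84.0%) and 4 lower (4.94%), where 17.9% of all genes tested were called higher and 14.5% lower. The count filter bears on this: 54 of the 81 reached the filter's count in both HFD libraries but not in both NCD libraries, 2 in NCD but not in HFD, and 25 in all 4 libraries. Entry through 1 diet favours a difference, though some such segments were not called, so the 25 are the plainer description. Of these 25, 17 were higher, 3 lower and 5 not called, with a median log2 change of 2.15 against 0.00 over all genes tested. Segments are not independent of each other.

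**Figure D1:**
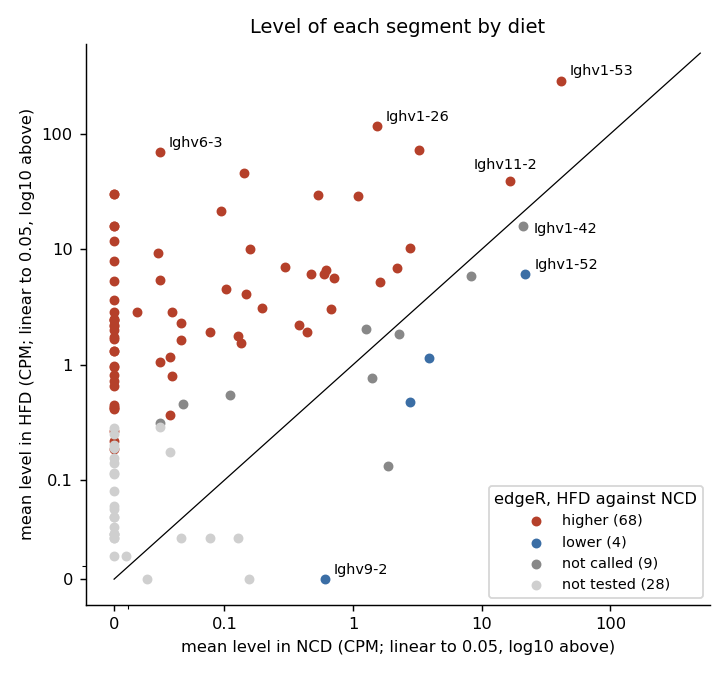
Mean level of each of the 109 segments with a count, in NCD (x axis) and HFD (y axis), in CPM on axes that are linear to 0.05 and logarithmic above. Points are segments coloured by edgeR's call, and the line marks equal levels. The 68 segments called higher lie above the line, 27 segments with at least 12 counts in both HFD libraries sit at 0 in NCD, and Ighv1-52 and Ighv9-2 are among the 4 called lower.

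The rise was not uniform. Around the log2 ratio of the sum, 46 of the 81 tested segments had a 95% interval of their own log2 change wholly above it, 14 wholly below it and 21 around it. Among the 25 segments that reached the filter in all 4 libraries these numbers were 6, 12 and 7. The 81 include 54 segments that reached the filter's count in both HFD but not both NCD libraries, which favours large rises. The 25 had to reach it in NCD too, which favours smaller ones. Mean shares of the segments in NCD and HFD had a Pearson correlation of 0.71 and a Spearman correlation of 0.61 across the 185 members. The members share libraries and are not independent. Of the 185, 76 had no count in any library, and these tied zeros count as agreement. Without Ighv1-53 the Pearson correlation was 0.21. Of the 10 segments with the largest mean share in each diet 3 were common to both, Ighv1-53, Ighv11-2 and Ighv1-55, as they were when counts were divided by exon length.

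Family 1, known as J558 and the largest family of this strain, led both diets. It has 93 members, 53 of them variable genes. Its share of Ighv counts was 81.5% (95% Wilson interval 80.7 to 82.3) and 80.3% (79.5 to 81.1) in NCD and 72.6% (72.3 to 73.0) and 74.5% (74.2 to 74.9) in HFD. The difference in mean share was -7.33 percentage points, while the summed level of the family was 6.47-fold higher, from 115 ± 0.654 to 746 ± 22.7 CPM. Of 42 tested members 35 were higher and 3 lower, where 17.9% of all genes tested were called higher and 14.5% lower. These numbers include segments that reached the filter's count in HFD only, which favours a difference.

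Ighv1-53 was the most counted segment in each of the 4 libraries, and its share hardly moved. It held 2625 and 2605 counts in NCD and 17607 and 16459 in HFD. As a share of Ighv counts this was 28.6% and 29.3% in NCD and 28.3% and 28.4% in HFD. Its level went from 41.3 ± 0.847 to 287 ± 4.46 CPM, 6.96-fold higher (log2 change 2.80, SE 0.05, edgeR adjusted p = 1.86e-05). The nearest sequence among the members is Ighv1-72, with 12 differing bases in the V exon.

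Behind Ighv1-53 the order changed. Ighv1-52 had rank 2 in NCD with 1406 and 1366 counts and rank 24 in HFD with 389 and 335, although the HFD libraries held several times as many Ighv counts. Its share was 15.4% ± 0.0137 in NCD and 0.601% ± 0.0339 in HFD, and its level fell from 21.9 ± 0.121 to 6.10 ± 0.259 CPM (log2 change -1.84, SE 0.11, edgeR adjusted p = 3.14e-04). Ighv1-42 had rank 3 in NCD with 1403 and 1250 counts, and had 922 and 963 in HFD. Its share was 14.7% ± 0.885 and 1.57% ± 0.126, and its level, 20.9 ± 1.17 and 15.9 ± 1.496 CPM, missed the threshold (edgeR adjusted p = 0.0520). DESeq2 and limma-voom put it lower in HFD (adjusted p = 0.00542 and 0.0422), as did edgeR on counts divided by 4 (adjusted p = 0.0471). It stayed uncalled by edgeR with DESeq2 size factors (edgeR adjusted p = 0.0564) and with a mean of at least 5 CPM (edgeR adjusted p = 0.0633). The same held with no count filter (edgeR adjusted p = 0.0791) and with a replicate block (edgeR adjusted p = 0.0980). Ighv1-7 was at 545 and 500 counts in NCD and 411 and 284 in HFD, a share of 5.78% ± 0.229 against 0.575% ± 0.121. It missed the threshold too (edgeR adjusted p = 0.0995, limma-voom adjusted p = 0.0832), while DESeq2 called it (DESeq2 adjusted p = 0.0349). In each of these 3 segments both HFD shares lay below both NCD shares. By level, 33.2% of all genes tested had both NCD libraries above both HFD libraries, and a segment that rises less than the Ighv sum loses share.

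Other family 1 segments were high in HFD. Ighv1-26 had rank 2 there, with 7060 and 6731 counts against 106 and 89 in NCD. Its share was 1.08% ± 0.110 in NCD and 11.5% ± 0.179 in HFD, and its level rose from 1.54 ± 0.150 to 116 ± 3.43 CPM (log2 change 6.24, SE 0.10, edgeR adjusted p = 1.36e-05). Ighv1-55 rose from 225 and 187 to 4297 and 4309 counts, with a log2 change of 4.48. Ighv1-64 had 12 and 6 counts in NCD and 2697 and 2712 in HFD, with a log2 change of 8.31. Its NCD counts are at and under the floor, and the size of the change is uncertain: it was 8.86 without NCD replicate 1 and 7.92 without NCD replicate 2. Ighv1-80 rose from 70 and 69 to 1733 and 1714 counts, with a log2 change of 4.73. Ighv1-72, the segment called V186.2 that dominates the response of this strain to the hapten NP, rose from 38 and 30 to 1682 and 1798 counts, with a log2 change of 5.77. The V exon of Ighv1-72 differs from that of Ighv1-62-3 by 3 bases, with an identical run of 220 bases. Their counts can therefore share reads. In Ighv1-26, Ighv1-55, Ighv1-64, Ighv1-80 and Ighv1-72 the diets did not overlap. By level, 34.5% of all genes tested had both HFD libraries above both NCD libraries. The libraries of a diet lay close together.

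**Figure D2:**
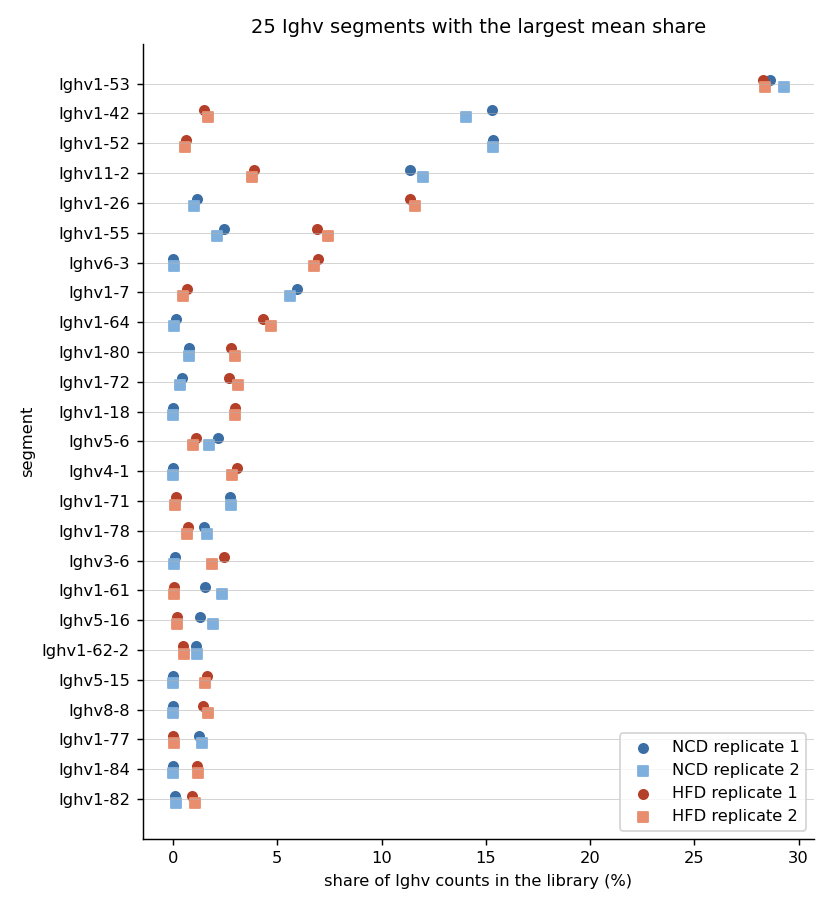
Share of Ighv counts (x axis, percent) of the 25 segments with the largest mean share (y axis) in each of the 4 libraries, circles for replicate 1 and squares for replicate 2. Ighv1-53 lies at 28.3% to 29.3% in all 4 libraries, while Ighv1-42 and Ighv1-52 are high in NCD and Ighv1-26 and Ighv6-3 are high in HFD.

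Several segments had no count in NCD. Of the 74 segments with at least 12 counts in both HFD libraries, 27 (36.5%) were at 0 in both NCD libraries, where 1.07% of all genes with such HFD counts were at 0 in NCD. These 27 held 14.6% of the Ighv counts in each HFD library. In the smaller NCD library the floor of 12 counts equals a share of 0.135%, and 17 of the 27 had a mean HFD share above that, so for the others a like share in NCD was not detectable at this depth. Ighv1-18 stood at 1836 and 1720 counts in HFD, at least 158-fold above the floor (edgeR adjusted p = 6.70e-05), and Ighv4-1 at 1910 and 1641, also at least 158-fold. Ighv5-15 (1004 and 885 counts), Ighv8-8 (896 and 971) and Ighv1-84 (703 and 695) were at least 84.0-fold, 83.4-fold and 62.3-fold higher. Ighv6-3, with 0 and 4 counts in NCD and 4327 and 3911 in HFD, had rank 4 in HFD (edgeR adjusted p = 6.05e-05). Both its NCD counts are under the floor, so no ratio is given. In the reverse direction 1 segment, Ighv9-2, had at least 12 counts in both NCD libraries, 36 and 40, and 0 in both HFD libraries, at least 2.96-fold lower. That call (edgeR adjusted p = 0.00967) was lost without NCD replicate 2 (edgeR adjusted p = 0.0534).

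The other segments called lower were Ighv1-61 and Ighv1-71. Ighv1-61 fell from 140 and 207 to 25 and 31 counts (log2 change -2.53, SE 0.38, edgeR adjusted p = 0.00589). Its V exon differs from that of Ighv1-52, which also fell, by 4 bases, with an identical run of 140 bases, so their counts can share reads. Ighv1-71 fell from 251 and 247 to 83 and 53 counts (edgeR adjusted p = 0.00658), whereas Ighv1-62-2, whose V exon of 313 bases is identical, rose from 100 and 104 to 301 and 317 counts (edgeR adjusted p = 0.00313). Summed, the pair held 351 and 351 counts in NCD and 384 and 370 in HFD, that is 5.54 ± 0.144 and 6.37 ± 0.235 CPM, so how the counts divide between the 2 is uncertain. Among the tested segments 11 of 81 were at least 98% identical in the V exon to another member, and these 2 were the ones with an identical copy. Of the 9 tested segments that were not called, 5 had a log2 change below 0: Ighv1-42, Ighv1-7 and, named after their values were seen, Ighv1-77, Ighv5-16 and Ighv5-17.

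Of the 16 families, 10 had a larger share in both HFD libraries than in both NCD libraries, and families 1, 5 and 11 a smaller one. By level, 34.5% of all genes tested had both HFD libraries above both NCD libraries, and 33.2% the reverse. The 10 include families 10 and 12, where Wilson intervals of NCD and HFD libraries overlapped. Their nearest shares were 0.112% in NCD and 0.114% in HFD for family 10, and 0.556% and 0.653% for family 12. Family 6 was at 0% and 0.0562% of Ighv counts in NCD and 7.08% and 6.88% in HFD, nearly all of it Ighv6-3. Family 4 went from 0.0327% and 0% to 3.07% and 2.83%, and family 3 from 0.207% and 0.124% to 3.11% and 2.16%, led by Ighv3-6 with 8 and 4 counts in NCD and 1511 and 1069 in HFD. Family 8 went from 0% and 0.112% to 1.88% and 2.00%, and family 2, called Q52, from 0.349% and 0.450% to 1.65% and 1.45%. Families 7, 10, 12, 13 and 14 each held 1.04% or less of Ighv counts in any library. In family 9 the shares overlapped, family 15 had 4 counts, all from Ighv15-2 in HFD replicate 1, and family 16 had no count. Of these families' leading segments, Ighv7-3, Ighv12-3, Ighv13-2, Ighv14-2, Ighv9-3 and Ighv2-9-1 were called higher. Ighv10-3, at 4 and 10 against 41 and 24 counts, missed the threshold (edgeR adjusted p = 0.0748, limma-voom adjusted p = 0.0704), while DESeq2 called it (DESeq2 adjusted p = 0.0194).

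Family 5, which includes the segment nearest the constant genes, had 4.30% and 5.11% of Ighv counts in NCD and 3.26% and 3.04% in HFD. Its leading segment Ighv5-6 was at 196 and 153 counts in NCD and 678 and 554 in HFD, among the 5 smallest of the rises called (log2 change 1.91, SE 0.18, edgeR adjusted p = 0.00127). The others were Ighv11-2, Ighv1-78, Ighv1-62-2 and Ighv1-4, and the call of Ighv1-4, at 19 and 36 against 110 and 119 counts (edgeR adjusted p = 0.0168), was lost when either HFD library was left out (edgeR adjusted p = 0.0506 without HFD replicate 1 and 0.0778 without HFD replicate 2). Ighv5-2, known as VH81X and overused in the earliest B cell progenitors, had 0 counts in NCD and 12 and 10 in HFD. Its levels were at or under the floor in both diets, and its call (edgeR adjusted p = 0.0417) was lost when either NCD library was left out (edgeR adjusted p = 0.143 without NCD replicate 1 and 0.139 without NCD replicate 2), with no count filter (edgeR adjusted p = 0.11) and with a replicate block (edgeR adjusted p = 0.140).

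**Figure D3:**
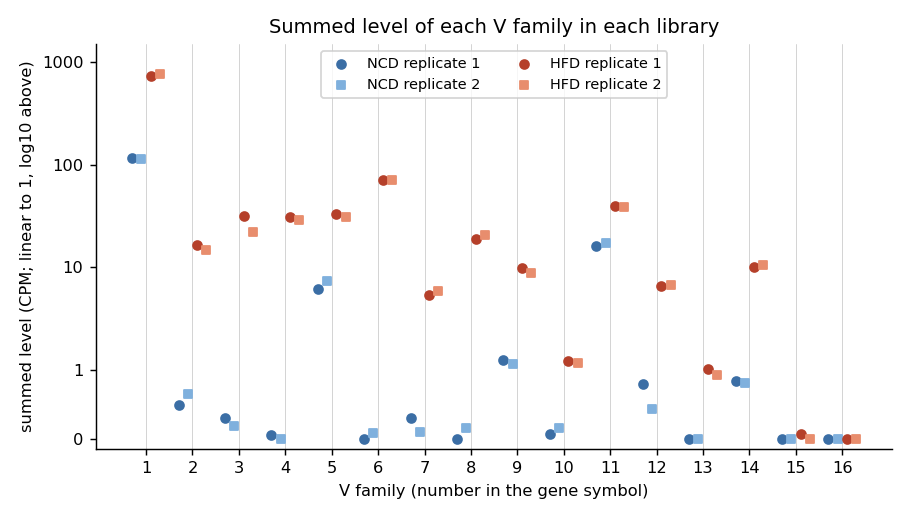
Summed level of each V family (x axis, family number) in each library (y axis, CPM, linear to 1 and logarithmic above), circles for replicate 1 and squares for replicate 2. Family 1 is highest in all 4 libraries, family 11 is next in NCD, and family 6, near 0 in NCD, is next in HFD.

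Family 11 stood out in NCD. Ighv11-2, a segment that B-1a cells use in antibodies against phosphatidylcholine, held 1040 and 1065 counts in NCD and 2417 and 2184 in HFD. Its share of Ighv counts was 11.3% and 11.98% in NCD and 3.88% and 3.76% in HFD, so that it had rank 4 in NCD and rank 6 in HFD. Its level rose from 16.6 ± 0.710 to 38.8 ± 0.329 CPM, 2.33-fold (log2 change 1.22, SE 0.08, edgeR adjusted p = 4.17e-04), with a 95% interval of 1.02 to 1.43 that lies below the log2 ratio of the sum. Ighv12-3, the other segment known for this specificity, held 51 and 27 counts in NCD and 408 and 379 in HFD. Its shares were 0.556% and 0.304% in NCD and 0.656% and 0.653% in HFD, and its log2 change of 3.43 (95% interval 2.61 to 4.26) lay around that of the sum. The 2 segments thus changed by different amounts, their intervals not overlapping. Ighv7-1, the segment of the T15 antibodies against phosphorylcholine, had 0 counts in NCD and 161 and 136 in HFD, at least 13.2-fold higher. Of 7 genes listed for B-1 cells, several of which T cells also express, 6 rose and Bhlhe41 fell. Cd5 rose from 45 and 16 to 392 and 324 counts.

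More segments were used in HFD. A count was found for 48 and 49 members in NCD and for 98 and 92 in HFD, and at least 12 counts for 31 and 28 in NCD and 85 and 79 in HFD. Thinned to 8893 counts, the lowest Ighv total, the expected numbers were 48.0 and 49.0 in NCD and 91.2 and 86.4 in HFD, so the gap remained at equal depth. Without thinning, 25 of the 27 segments with at least 12 counts in both NCD libraries (92.6%) had them in both HFD libraries, and these were 33.8% of the 74 such HFD segments. The HFD libraries held on average 6.66 times as many Ighv counts, so these percentages are not at equal depth. The 25 common segments held 96.5% and 96.8% of the Ighv counts in NCD and 65.5% and 66.5% in HFD. No count in any library was found for 16 variable genes and 58 pseudogenes.

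Counts were also spread more evenly in HFD. The 5 largest segments held 76.6% and 76.3% of Ighv counts in NCD and 57.8% and 58.8% in HFD. It took 13 and 12 segments to reach 90% of the counts in NCD and 27 and 26 in HFD. The Shannon effective number, the number of equally used segments that would give the same diversity, was 11.2 and 11.1 in NCD and 20.3 and 19.5 in HFD. The inverse Simpson number, which weights the largest segments more, was 6.73 and 6.66 in NCD and 8.96 and 8.83 in HFD. Pielou's evenness, which is 1 when all segments seen have equal shares, was 0.621 ± 0.00535 (SD, n = 2) in NCD and 0.657 ± 0.000868 in HFD. The diets did not overlap in any of these measures. Without Ighv1-53 the evenness was 0.660 in NCD and 0.736 in HFD.

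**Figure D4:**
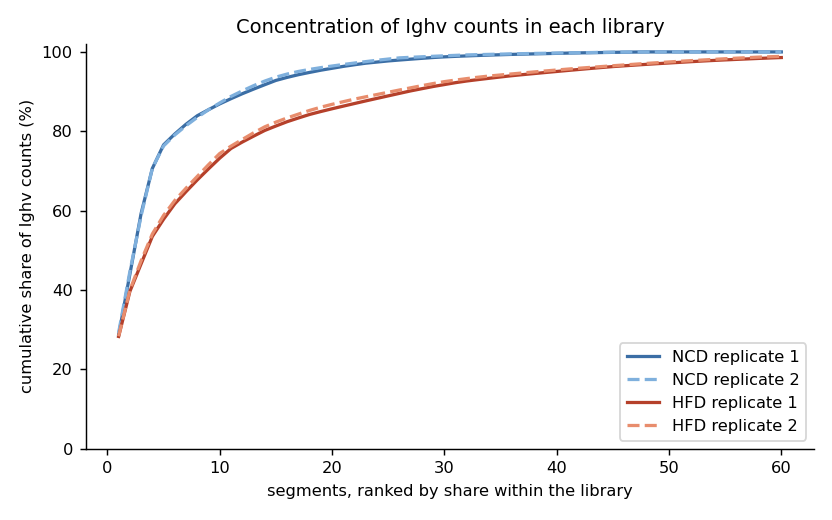
Cumulative share of Ighv counts (y axis, percent) over segments ranked by share within each library (x axis), solid lines for replicate 1 and dashed lines for replicate 2. The curves start together at the share of Ighv1-53, and the NCD curves reach 90% at 13 and 12 segments against 27 and 26 in HFD.

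Libraries of the same diet had nearly the same repertoire. The overlap of segment shares, summed over the smaller of the 2 shares of each segment, was 95.03% between the NCD libraries and 96.6% between the HFD libraries, against 45.3% to 46.8% in the 4 pairs between diets. As Bray-Curtis dissimilarity this is 0.0497 and 0.0341 within a diet and 0.532 to 0.547 between diets. Pearson correlations of shares across the 185 members were 0.998 in NCD, 0.999 in HFD and 0.708 to 0.719 between diets. Chi-square per degree of freedom between the libraries of a diet was 33.5 in NCD and 20.4 in HFD over all genes, where sampling of single reads gives about 1 and counts in steps of 4 up to about 4. Over the Ighv counts alone it was 4.17 and 6.56. Not all counts came in steps of 4: 8 of 22 low Ighv counts in NCD replicate 1 and 9 of 23 in NCD replicate 2 were multiples of 4. The value that sampling alone gives was not determined, so whether the NCD libraries differ in these segments beyond sampling was not settled. Whether the libraries of a diet share animals or a pool of islets was not tested, and the labels do not say.

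Along the chromosome the members were divided into 4 blocks of 46 or 47, numbered from the constant genes outwards. Ighm, the constant gene of IgM, lies at chr12:113418558-113422730, beside block 1. Block 3, from Ighv1-15 to Ighv8-6 and holding Ighv1-53, Ighv1-52, Ighv1-42 and Ighv1-26, took 61.4% ± 0.932 of Ighv counts in NCD and 47.7% ± 0.361 in HFD. Block 4, the outermost, took 13.2% ± 0.445 and 25.6% ± 1.26, block 2 took 8.15% ± 0.633 and 13.9% ± 1.00, and block 1 took 17.3% ± 1.12 and 12.8% ± 0.623. Segments called higher were found in each block, 18 of 22 tested in block 1, 17 of 20 in block 2, 12 of 15 in block 3 and 21 of 24 in block 4. Over all genes tested 17.9% were called higher. The block numbers include the 54 of 81 segments that reached the filter's count in both HFD but not both NCD libraries, which favours a difference.

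**Figure D5:**
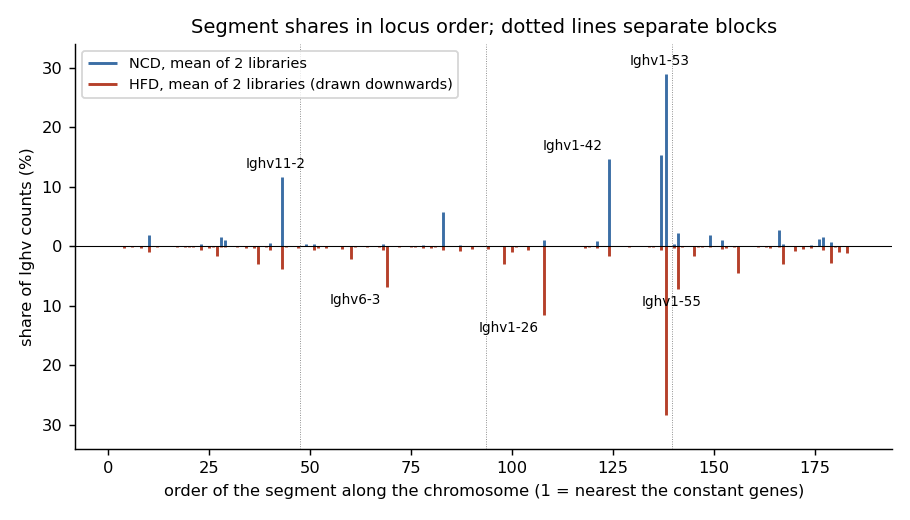
Mean share of Ighv counts (y axis, percent) of each of the 185 segments in order along the chromosome (x axis), NCD drawn upwards and HFD downwards, with dotted lines between the blocks. Ighv1-53 is the tallest line in both diets, and in NCD Ighv1-42 and Ighv11-2 are tall where HFD has Ighv1-26 and Ighv6-3.

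The pseudogenes had few counts. Together they held 28 and 0 counts in NCD and 60 and 60 in HFD, at most 0.306% of Ighv counts. Ighv1-30 had 20 counts in NCD replicate 1 and 0 in the other 3 libraries, and Ighv1-38 had 13 in HFD replicate 2 and 0 in the others. Ighv1-2 had 0 counts in NCD and 33 and 19 in HFD, at least 2.29-fold above the floor (edgeR adjusted p = 0.0172), a call lost when either HFD library was left out (edgeR adjusted p = 0.116 without HFD replicate 1 and 0.0792 without HFD replicate 2) and with a replicate block (edgeR adjusted p = 0.0628).

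Other genes of the heavy chain and of B cells moved with the segments. To set beside the calls below, 17.9% of all genes tested were called higher in HFD and 14.5% lower. Of 8 constant region genes 7 were tested and 7 rose, Ighm from 32353 and 31074 to 204452 and 189066 counts, and Ighe had no count. Ighm held 96.7% to 97.0% of the counts of these genes in each library. The Ighv sum per Ighm count was 0.283 and 0.286 in NCD and 0.304 and 0.307 in HFD, a measure that does not adjust for transcript length. Ighg1 rose from 0.739 to 22.5 CPM, 30.5-fold, and Ighg2b from 6.83 to 33.5 CPM, 4.90-fold. Of 15 B cell genes 14 rose and Fcer2a missed the threshold (edgeR adjusted p = 0.0883). The B cell list summed to 73.1 and 74.5 CPM in NCD against 369.9 and 372.4 in HFD, 5.03-fold. Cd79a, a signalling chain of the B cell receptor, rose 5.26-fold. Of 10 plasma cell genes 9 were tested, 7 rose, Derl3 fell and Xbp1 did not pass. The rises ran from 1.44-fold for Prdm1 to 8.09-fold for Jchain, which joins IgM and IgA polymers. Tnfrsf17, not tested, had 28 counts in HFD replicate 1 and 0 in each other library. The plasma cell list summed to 478 and 548 CPM in NCD against 957 and 1025 in HFD, 1.93-fold. Xbp1, Derl3 and Txndc5 are also expressed by endocrine and acinar cells.

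Several genes that assemble the segments were at or near 0, while Ung and Pou2f1, which most cells express, were not and did not pass the test. Rag1 and Rag2, which cut the segments for joining, and the surrogate light chain genes Vpreb2 and Igll1 had no count in any library. Of 11 genes in this list 5 were tested, of which Pou2f2, a factor that binds variable segment promoters, rose 2.61-fold. Markers of other cells moved as well: all 9 T cell genes, 6 acinar genes and 5 fibroblast genes rose, as did 3 of 10 macrophage genes, 2 of 3 alpha cell genes and 2 of 3 endothelial genes, while 5 macrophage, 4 of 6 beta cell and 1 endothelial gene fell. The T cell list summed to 15.1 and 13.8 CPM in NCD against 92.2 and 79.4 in HFD, the acinar list to 194.7 and 202.9 against 1374 and 1543, and the fibroblast list to 69.7 and 72.1 against 1087 and 1110. Ptf1a, an acinar factor, had no count in NCD. Beside these marker calls, 17.9% of all genes tested were called higher in HFD and 14.5% lower. The part of these other cells in the rise of Ighv transcripts was not tested.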

How the data were processed

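The authors deposited a table of raw read counts for each library, with 55421 Ensembl identifiers, of which 55240 had a symbol in GENCODE M21 (GRCm38). The submitters' processing notes name HISAT, featureCounts 1.5.0, DESeq 1.8.3 and GRCm38, without roles. Strandedness, annotation release and handling of multiply matching reads were not given in the sources used here. Reads from near-identical segments can therefore be split or lost, and reads that carry somatic mutations or a joined end may be placed less often.

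Genes passing edgeR's filterByExpr (minimum count 10) were scaled by TMM and tested with edgeR 4.0.16 in R 4.3.3, without a replicate block. CPM of single segments are TMM-scaled, and sums and shares use unscaled counts. Thinning used the exact hypergeometric expectation. On simulated counts for 20864 genes the test recovered 16.7%, 54%, 70% and 92% of genes changed 1.5-fold, 2-fold, 4-fold and 8-fold, with 16 calls among unchanged genes. The coefficient of variation common to all genes was 19.1%.

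Named segments were the 12 with the largest mean share, the leader of each family, those called lower, the 5 largest and 5 smallest rises, the 3 pseudogenes with the largest count in any 1 library, and Ighv11-2, Ighv12-3, Ighv5-2, Ighv7-1, Ighv1-72 and Ighv1-53. Members, lists and rules were chosen with earlier results of these data known. Alternatives were DESeq2 1.42.0 (size factors and Wald test), limma-voom (limma 3.58.1), no filter, a replicate block, a minimum mean of 5 CPM, counts divided by 4, variable genes only and leaving out each library. Counts per exon length, library-wise similarity and the floor of 12 counts were chosen after seeing the data.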

Additional observations from a re-analysis of the deposited data

How the results depend on the processing

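The number of segments called higher was 57 to 70 under the other tests, scalings and filters, except that a mean of at least 5 CPM left 19 segments to test, with 16 called higher and 1 lower. Leaving out a library gave 54 to 63 higher and 3 to 5 lower, with the lone library of a diet assumed to vary like the others. Same-numbered libraries of the 2 diets did not deviate together (correlation 0.00), and with the replicate block 59 were higher and 4 lower. Of 352 values of named segments under alternatives, 337 stayed on their side of the threshold, 10 lost and 5 gained a call, and 0 changed direction; 27 of 31 named segments called kept the call wherever tested. The gain of HFD in segments seen at equal depth, 40.3, was 30.3 with counts divided by 4 and 52.5 with at least 12 counts required and no thinning. The evenness difference of 0.0357 was 0.0416 for variable genes alone, 0.0759 without Ighv1-53 and 0.0119 for the inverse Simpson number over the number of members. The difference in family 1 share, -7.33 percentage points, was -9.99 without Ighv1-53 and -9.10 per exon length. The excess of dissimilarity between diets over that within diets, 0.498, was 0.285 as 1 minus the Pearson correlation and 0.488 to 0.511 when a library was left out. Depth limits segments below the floor of 12 counts, which is 0.131% and 0.135% of Ighv counts in NCD and 0.0193% and 0.0207% in HFD.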

Other observations

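More kappa light chain segments were also seen in HFD, at equal depth too. Of 160 Igkv members 30 and 35 had a count in NCD and 91 and 88 in HFD. Thinned to 11704 counts, the lowest Igkv total, the expected numbers were 30 and 35 in NCD and 84.8 and 83.8 in HFD. The measures of concentration pointed in different directions. The most counted Igkv segment held 27.4% and 26.9% of Igkv counts in NCD and 44.9% and 44.0% in HFD, while the 5 largest together held 84.1% and 85.3% in NCD and 61.4% and 61.1% in HFD. The inverse Simpson number was 5.61 and 5.599 in NCD and 4.67 and 4.84 in HFD, and the Shannon effective number was 7.78 and 7.75 in NCD and 14.1 and 14.4 in HFD. Pielou's evenness, at 0.603 and 0.576 in NCD and 0.586 and 0.596 in HFD, overlapped between the diets. Any difference between the chains was not tested. Summed counts of Igkv per Ighv count were 1.36 and 1.32 in NCD and 1.18 and 1.13 in HFD, without adjustment for length.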
